A study of Mus musculus with 6 samples.

Results

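The genes of 8 receptors that guide blood progenitors into, through and out of the thymus were followed in cultured T-cell precursors of mice with and without a timing enhancer of Bcl11b. The 8 genes are Ccr9, Ccr7, Cxcr4, S1pr1, Selplg, Itgb7, Ccr2 and Ccr8, chosen by symbol, and all are listed in the files. A unique molecular identifier (UMI, 1 counted RNA molecule) was found in at least 15 kept cells for 13599 genes, the 8 among them. Progenitors reach the thymus from blood by rolling on P-selectin through PSGL-1, the product of Selplg, and by answering the chemokines CCL25, CCL19, CCL21 and CXCL12 through CCR9, CCR7 and CXCR4. Integrins then hold them to the vessel wall, and the sphingosine 1-phosphate receptor S1PR1 lets mature T cells leave again. CCR2 and CCR8 are better known from monocytes, innate lymphoid cells (ILC) and activated T cells.

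The study asked how the timing of Bcl11b activation divides progenitors between T and innate lymphoid fates. WT C57BL/6 mice were Bcl11b YFP/YFP and ΔTE mice were Bcl11b YFPΔEnh/YFPΔEnh. Both copies of the enhancer were thus gone in ΔTE, and the yellow fluorescent reporter behind Bcl11b was shared by both genotypes. CD117-enriched bone marrow of male and female mice aged 2 to 4 months, pooled from 6 to 8 mice, was grown on OP9-DL1 stroma with Flt3-L and IL-7 and sorted into 3 starts, all of them CD44+: DN1 lacks CD25, DN2a has CD25 without the Bcl11b reporter, and DN2b has both. Each start was grown on OP9-DL1 for another 4 days, with IL-2, SCF and IL-15 added per the study's methods for its innate lymphoid cultures, then fixed and read by sci-RNA-seq3, with nuclear RNA as the labelled molecule. There is 1 library for each genotype and start, made in 3 reverse-transcription wells. The mice of a genotype were pooled before culture, so the spread between animals is not known and no test between conditions was made. Whether the wells of a library divide 1 culture is not given in the sources used here. OP9-DL1 is a mouse stromal line that displays a Notch ligand, not thymic tissue, and its own RNA counts in the libraries.

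A barcode counted as a cell when it had 200 or more genes, no more than 2000 UMIs and no more than 30% of them mitochondrial. This left 10925, 19489 and 4968 WT cells from DN1, DN2a and DN2b and 10294, 11594 and 3401 ΔTE cells. They held 5994462, 9048728, 2732285, 5898630, 6320441 and 1717136 UMIs in the same order. The median cell had between 386 and 485 UMIs in a library, so most genes were read from sums over cells. No kept barcode was shared by libraries. Levels are in CPM, a gene's UMIs scaled to the library's UMIs of the 13599 genes, slightly fewer than the totals above, and their 95% intervals are exact Poisson intervals. Ratios are on the log2 scale with exact conditional binomial 95% intervals. All intervals cover counting error only.

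Technical differences between libraries and between wells came before the results. The WT DN2a library had a median of 13.3% mitochondrial UMIs, against 20.9% to 23.9% in the other 5 libraries. The limit of 30% removed 2.59% of its barcodes and between 26.8% and 56.6% of those of the others. Inside the ΔTE DN2a library, well 2 stood apart in the same way, with a median of 16.6% against 22.4% and 24.5% in wells 1 and 3. Wells of other libraries also differed in the share removed by the limit. It was 49.9%, 39.6% and 15.0% in WT DN1, 60.7%, 39.3% and 25.7% in WT DN2b and 42.1%, 64.3% and 60.3% in ΔTE DN2b. In ΔTE DN1 it lay between 29.2% and 31.5%.

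Bcl11b itself, the gene whose enhancer was removed, served to check the labels. Its level was 235 CPM in WT DN1, 535 in WT DN2a and 856 in WT DN2b. In ΔTE it was 89.4 CPM in DN1, 256 in DN2a and 539.6 in DN2b. All 3 ΔTE libraries were below the WT library of their start, with no overlap between wells, and within each genotype the order was DN1, DN2a, DN2b. The log2 ratios of ΔTE to WT were −1.39 (−1.54 to −1.25), −1.06 (−1.14 to −0.98) and −0.67 (−0.78 to −0.56). The T lineage markers summed to 213, 681 and 1147 CPM in WT and 157, 478 and 1142 CPM in ΔTE, with a UMI for 8 of 10 markers in every library and Cd3g, Lat or Cd247 as the most abundant. The remaining markers, Trbc1 and Trbc2, are not listed in the files.

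A gene was called changed when its CPM differed by more than 1.5-fold between libraries that together held at least 100 UMIs of it. From the DN1 start, 0 of 5 testable homing genes passed in ΔTE against WT, where 2.45% of all 9091 tested genes passed. From the DN2a start 3 of 7 passed, against 8.37% of all genes, with Ccr9 and Ccr2 higher and S1pr1 lower in ΔTE. From DN2b it was 3 of 6, against 6.12% of all genes, with Ccr9 and Ccr2 again higher and Ccr7 lower. At both DN2 starts the members' share lay above that of all genes, for a list chosen with earlier results of these data known.

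Between starts within WT, 2 of 6 testable homing genes passed from DN1 to DN2a, beside 14.7% of all genes, and both Ccr7 and S1pr1 were higher from DN2a. From DN2a to DN2b in WT 3 of 7 passed, beside 12.6% of all genes, with Ccr9 and Ccr2 higher and S1pr1 lower. In ΔTE, only Ccr2 of 5 testable genes (1 of 5) passed from DN1 to DN2a, beside 9.35% of all genes. Ccr9 and Ccr2, 2 of 6, passed from DN2a to DN2b in ΔTE, beside 10.1%. Each of these shares is above that of all genes, on few genes each time. Comparisons of genotype and of start share libraries, so they are not independent of each other.

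Library scaling shifted every comparison with WT DN2a. The median gene moved by −0.14 in ΔTE against WT from DN2a, by 0.14 from DN1 to DN2a in WT and by −0.18 from DN2a to DN2b in WT, all log2. Relative to that median, the Ccr9, Ccr2 and S1pr1 ratios of ΔTE to WT from DN2a were 1.09, 1.36 and −1.42. In WT, those from DN1 to DN2a were 0.95 for Ccr7 and 2.31 for S1pr1, and those from DN2a to DN2b were 3.54 for Ccr9, 0.90 for Ccr2 and −1.30 for S1pr1. TMM scaling of the totals also moved the split of all called genes. In ΔTE against WT from DN2a it went from 116 higher and 714 lower to 182 higher and 457 lower. In WT, the split from DN1 to DN2a moved from 1242 higher and 204 lower to 930 and 331, and that from DN2a to DN2b from 97 higher and 1101 lower to 186 and 735. Under TMM the Ccr2 rise from DN1 to DN2a in ΔTE was 0.58 and no longer passed 1.5-fold, while Itgb7 at −0.64 from DN1 to DN2a in WT and Ccr7 at 0.62 from DN2a to DN2b in WT did pass.

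**Figure D1:**
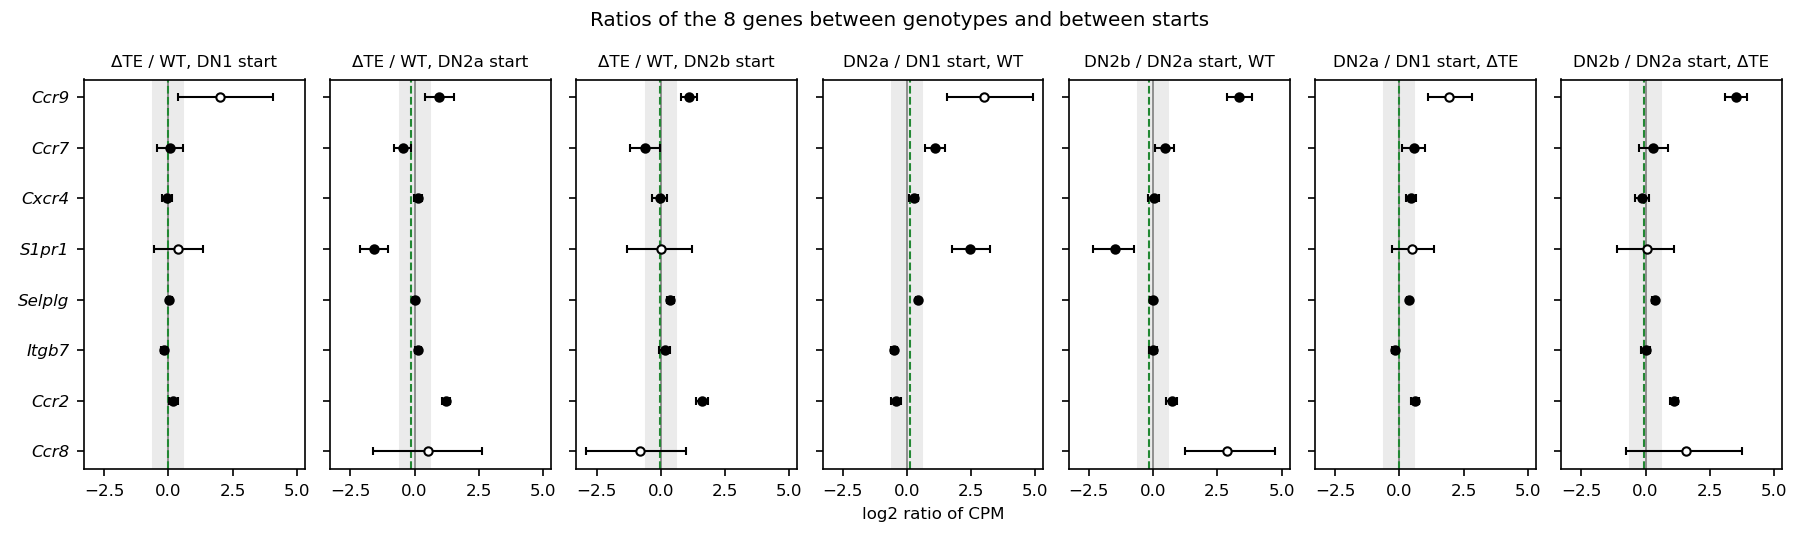
Log2 ratios of CPM (horizontal axis) of the 8 genes (vertical axis) in 7 comparisons with exact 95% intervals for counting error, filled where both libraries together have at least 100 UMIs, with a grey band for 1.5-fold either way and a dashed line at the median of all tested genes. Ccr9 and Ccr2 lie to the right of the band for ΔTE against WT from both DN2 starts.

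Ccr9 encodes the receptor for CCL25, which thymic epithelium makes and which draws progenitors to the thymus. Its level in WT was 0.668 CPM (4 UMIs) from DN1, 5.31 CPM (48 UMIs) from DN2a and 54.6 CPM (149 UMIs) from DN2b. In ΔTE it was 2.71 CPM (16 UMIs), 10.3 CPM (65 UMIs) and 117 CPM (201 UMIs) from the same starts. Ccr9 spanned 175-fold from WT DN1, on its 4 UMIs, to ΔTE DN2b, the widest range of the 7 genes with a UMI in every library. The levels fell in the order ΔTE DN2b, WT DN2b, ΔTE DN2a, WT DN2a, ΔTE DN1, WT DN1, and 95% intervals of neighbours in that order were separate, apart from those of WT DN2a with ΔTE DN1 (3.91 to 4.41 CPM shared) and of ΔTE DN1 with WT DN1 (1.55 to 1.71 CPM shared).

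The step between DN2a and DN2b was the largest Ccr9 difference with enough UMIs to call, with a log2 ratio of 3.36 (2.88 to 3.86) in WT and 3.51 (3.10 to 3.94) in ΔTE. From DN1 to DN2a the ratio was 2.99 (1.54 to 4.92) in WT, on 52 UMIs, and 1.92 (1.12 to 2.81) in ΔTE, on 81 UMIs. Wells of neighbouring starts did not overlap in either genotype. At a mitochondrial limit of 20% the DN2b to DN2a ratios were 3.55 and 3.96, on too few UMIs for a call. ΔTE exceeded WT by 1.10 (0.79 to 1.42) from DN2b, with wells at 101, 121 and 131 CPM in ΔTE and 42.3, 66.9 and 52.2 CPM in WT. From DN2a the excess was 0.95 (0.39 to 1.52), and here the wells overlapped, since well 2 of ΔTE lay at 4.98 CPM within the WT wells at 4.00 to 6.14 CPM. Without that well the ratio was 1.23. The total is near the 100 needed for a call, and too few UMIs were left without well 1 or 3 of ΔTE (0.70 and 0.83), without well 1 or 2 of WT (1.00 and 1.10), and at a mitochondrial limit of 20% (0.60), a minimum of 300 genes (1.03) or in cells of no gate (1.00). From DN1 the ratio of 2.02 (0.39 to 4.06) rests on 20 UMIs and was not called.

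The DN2b difference in Ccr9 was also taken within gates. In cells that passed no marker gate, Ccr9 was higher in ΔTE from DN2b by 0.97 (0.60 to 1.34), on 252 UMIs. Among cells of the T lineage gate the ratio was 1.34 (0.29 to 2.41), on 34 UMIs. The ILC or NK gate gave 0.82 (−0.10 to 1.82), on 51 UMIs, an interval that includes no difference. A gate here is a set of cells with UMIs of at least 2 markers of a list and of fewer than 2 markers of any other list. It passed 1715 T lineage, 1807 ILC or NK, 1647 multipotent progenitor, 455 myeloid and 3040 stroma cells. The cells of no gate, 51250 of 60671 (84.5%), had fewer than 2 markers of every list. A gate thus describes the marker-rich cells and not a whole population. Another 507 cells had at least 2 markers of several lists and were counted neither in a gate nor in cells of no gate.

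Ccr7 encodes the receptor for CCL19 and CCL21, which also serve entry to the thymus and later movement into the medulla. It was at 11.4 CPM in WT DN1, 24.1 in WT DN2a and 33.0 in WT DN2b. The ΔTE libraries had 11.9 CPM from DN1, 17.4 from DN2a and 21.6 from DN2b. WT had the order DN1, DN2a, DN2b, while in ΔTE the DN2a to DN2b ratio of 0.31 (−0.27 to 0.86) was within counting error and the wells overlapped. From DN1 no difference between genotypes was detectable, with a log2 ratio of 0.07 (−0.44 to 0.57). ΔTE was lower by a ratio of −0.47 (−0.81 to −0.13) from DN2a, short of 1.5-fold, and of −0.61 (−1.21 to −0.05) from DN2b, just past it. The DN2b wells did not overlap, with a lowest WT well at 29.2 CPM and a highest ΔTE well at 25.7 CPM. Its call was lost, at −0.49, without well 3 of ΔTE DN2b, at −0.52 without well 1 of WT DN2b, and at −0.58 with a limit of 2000 genes in place of 2000 UMIs. Without well 3 of WT DN2b (−0.65), with at least 300 genes (−0.59) or at most 20% mitochondrial UMIs (−1.21), too few UMIs were left. From DN2a the ratio was past 1.5-fold without well 3 of WT (−0.65), with at least 300 genes (−0.81) and with no limit on mitochondrial UMIs (−0.68). The rise from DN1 to DN2a in WT, 1.09 (0.69 to 1.502), passed under every alternative tried, although the highest WT DN1 well at 18.1 CPM reached the lowest WT DN2a well at 17.7 CPM. The same step in ΔTE was 0.55 (0.11 to 1.01), short of 1.5-fold. It passed without well 3 of ΔTE DN2a (0.59), well 2 of ΔTE DN1 (0.59) or well 3 of ΔTE DN1 (0.65), with no limit on mitochondrial UMIs (0.64), without stroma-gate cells (0.66) and in cells of no gate (0.59), an alternative chosen after the data were seen. Whether the step differs between genotypes was not tested.

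Selplg, for the P-selectin ligand that starts rolling, was at 303 CPM in WT DN1, 406 in WT DN2a and 399.9 in WT DN2b. In ΔTE it was at 313, 406 and 519 CPM. The DN1 libraries were lowest in both genotypes and ΔTE DN2b was highest, with its lowest well at 466 CPM above the highest WT DN2b well at 419 CPM. The ratio of ΔTE to WT from DN2b was 0.38 (0.25 to 0.51), and those from DN1 and DN2a were 0.04 (−0.05 to 0.14) and 0.00 (−0.07 to 0.07). No Selplg ratio between genotypes passed 1.5-fold. Between DN1 and DN2a WT rose by 0.42 (0.34 to 0.50) and ΔTE by 0.38 (0.29 to 0.46), and with no limit on mitochondrial UMIs the WT value was 0.63, past 1.5-fold, as was the ΔTE value of 0.62 at a limit of 20%.

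PSGL-1 binds selectins only after its sugars are built, and 10 genes of that work were listed with it. From the DN1, DN2a and DN2b starts, 0 of 7, 0 of 7 and 1 of 7 testable genes of that list passed 1.5-fold between genotypes, beside 2.45%, 8.37% and 6.12% of all genes. The passing gene was St3gal6, for a sialyltransferase, at 1.84, 4.31 and 13.2 CPM in WT and 2.71, 9.34 and 38.5 CPM in ΔTE. Its ratio from DN2b was 1.54 (0.94 to 2.17), with separate wells, and its levels had the order of starts seen for Ccr9. St3gal4, B4galt1, Tpst2 and C1galt1, the most abundant of the list, moved by at most 0.50 log2 between genotypes at any start, the farthest being C1galt1 from DN2b at −0.50 (−0.88 to −0.12). The list's median ratios were 0.00, −0.08 and 0.09, against 0.00, −0.14 and −0.01 for all genes.

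Itgb7 encodes the β7 integrin chain, which pairs with α4 or αE and binds MAdCAM-1 or E-cadherin. It was at 225, 159 and 159 CPM in WT and 198, 177 and 177 CPM in ΔTE. The DN1 libraries were highest, and the DN2 libraries lay close together, with wells of DN2a and DN2b overlapping in each genotype. ΔTE was lower from DN1 by a log2 ratio of −0.18 (−0.29 to −0.06) and higher from DN2a by 0.15 (0.04 to 0.26), both with separate wells and both well inside 1.5-fold. From DN2b the ratio was 0.15 (−0.06 to 0.37), and wells overlapped. From DN1 to DN2a both genotypes fell, with ratios of −0.50 (−0.61 to −0.39) for WT and −0.17 (−0.29 to −0.05) for ΔTE.

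Of 13 integrin and adhesion genes listed with Itgb7, all were measured and 1 of 13, 1 of 13 and 3 of 12 testable genes passed between genotypes from DN1, DN2a and DN2b, where 2.45%, 8.37% and 6.12% of all genes passed. Itgae, for the αE chain that pairs with β7, passed in all 3 starts and was at 12.0, 26.0 and 82.8 CPM in WT and 28.7, 70.5 and 145 CPM in ΔTE. Every ΔTE library was above its WT counterpart with no overlap of wells, and the ratios were 1.25 (0.85 to 1.67), 1.44 (1.21 to 1.67) and 0.81 (0.54 to 1.08). Itga4, for the other partner of β7, moved by no more than 0.23 (0.19 to 0.28), from DN2a, and ranged from 895 to 1134 CPM. From DN2b, Itgb2 was higher in ΔTE by 0.84 (0.47 to 1.21) and Itga5 lower, at −0.72 (−1.27 to −0.21), both with separate wells. Cd47 and Itgal, also abundant, stayed within 0.24 of 0 between genotypes. The list's medians were −0.02, −0.09 and −0.07.

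Cxcr4, for the CXCL12 receptor that keeps progenitors in marrow and places early thymocytes in the cortex, varied least among the 7 genes with a UMI in every library. Its levels were 71.5, 86.1 and 87.9 CPM in WT and 68.2, 94.0 and 85.1 CPM in ΔTE, a range of 1.38-fold. The DN1 libraries were lowest in both genotypes, and the DN2 libraries overlapped. No ratio passed 1.5-fold, and those between genotypes were −0.07 (−0.27 to 0.13), 0.13 (−0.03 to 0.28) and −0.05 (−0.35 to 0.26). Within ΔTE DN2a, well 2 was at 141 CPM against 70.2 and 84.5 CPM in the other wells. Without that well the Cxcr4 ratio of ΔTE to WT from DN2a was −0.19, the rise from DN1 to DN2a in ΔTE was 0.14 and the DN2a to DN2b step in ΔTE went from −0.14 to 0.18. With well 1 left out, the rise from DN1 to DN2a in ΔTE went from 0.46 (0.28 to 0.65) to 0.75, past 1.5-fold, as it was at a mitochondrial limit of 20% (0.84) and with at most 1000 UMIs (0.59).

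S1pr1, the egress receptor, was at 3.00 CPM in WT DN1, 16.4 in WT DN2a and 5.86 in WT DN2b. ΔTE had 3.90 CPM from DN1, 5.54 from DN2a and 5.83 from DN2b. WT DN2a stood above the other 5 libraries, whose intervals all overlapped. The ratios past 1.5-fold were 2.45 (1.74 to 3.24) from DN1 to DN2a in WT, −1.48 (−2.33 to −0.73) from DN2a to DN2b in WT, and −1.56 (−2.14 to −1.02) in ΔTE against WT from DN2a. All 3 involve WT DN2a, the library with the low mitochondrial share.

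Summed over libraries, most S1pr1 molecules came from cells with stromal markers. The stroma gate held 170 of the 250 S1pr1 UMIs (68.0%). Its level was 86.0 CPM against 2.05 CPM in cells of no gate, a log2 ratio of 5.39 (4.93 to 5.87). By library the gate held 11 of 18, 119 of 148 and 8 of 16 UMIs in WT from DN1, DN2a and DN2b. In ΔTE it held 5 of 23, 26 of 35 and 1 of 10. WT DN2a had 8.98% of its cells in that gate, against 2.11% in WT DN1, 3.18% in WT DN2b and 1.69%, 5.86% and 1.38% in the ΔTE libraries. The 12 stroma markers summed to 450, 2049 and 715 CPM in WT and 249.9, 1275 and 342 CPM in ΔTE, highest in the same library as S1pr1. All 12 had a UMI in WT DN1, WT DN2a and ΔTE DN2a and 11 in the other libraries, where Lum was at 0, and Col1a2 or Bgn was the most abundant. Within ΔTE DN2a, well 2 had 12.8% of its cells in the gate, a marker sum of 3355 CPM and S1pr1 at 13.3 CPM. Wells 1 and 3 had 2.72% and 1.65% of cells in the gate, marker sums of 501 and 328 CPM, and S1pr1 at 2.37 and 2.56 CPM.

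Leaving out every cell with at least 2 stroma markers changed the S1pr1 results between starts. The ratio from DN1 to DN2a in WT was then 1.08 (−0.22 to 2.56), and that from DN2a to DN2b in WT turned to 0.27 (−1.12 to 1.52), both on too few UMIs for a call. In ΔTE the step from DN1 to DN2a went from 0.51 to −1.86 (−3.64 to −0.38), on 5 and 18 UMIs, and that from DN2a to DN2b from 0.07 to 2.64 (0.90 to 4.56), on 9 and 5 UMIs. ΔTE against WT was then 1.37 (0.04 to 2.87) from DN1 and −1.57 (−3.33 to −0.11) from DN2a, also on too few UMIs for a call. In all cells the DN2a wells of the genotypes overlapped, with well 2 of ΔTE at 13.3 CPM and the lowest WT well at 13.0 CPM, and the ratio was −2.75 without well 2 of ΔTE DN2a and −0.98 without well 1. With no limit on mitochondrial UMIs the ratios were 0.59 from DN1 to DN2a and 0.12 from DN2a to DN2b in WT, and −0.68 for ΔTE against WT from DN2a. At a limit of 20% the WT ratio from DN2a to DN2b was −2.52. Without the stroma-marker cells 67 UMIs were left at 2.27 CPM over all libraries, and the part of stromal cells in the S1pr1 differences beyond these values was not tested.

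Of 8 genes listed around egress and the other sphingosine 1-phosphate receptors 7 were measured, and none passed 1.5-fold between genotypes in any start, with 0 of 6, 0 of 6 and 0 of 4 testable. At shares of 2.45%, 8.37% and 6.12% among all genes, a list of this size has few calls or none. Tspan2, the most abundant, had ratios of 0.02, −0.16 and 0.03. S1pr3 and S1pr4 ranged over 20.9 to 50.5 CPM and 22.7 to 30.6 CPM in the 6 libraries. Foxo1, whose product is known to act on egress and homing receptor genes, was higher in ΔTE from DN2b by 0.55 (0.11 to 1.00), short of 1.5-fold and with overlapping wells. Between starts, 4 of 6 testable genes of the list were higher from DN1 to DN2a in WT (all genes: 14.7%) and 0 of 6 in ΔTE (9.35%). From DN2a to DN2b, 1 was higher and 2 were lower of 6 in WT (12.6%). In ΔTE 1 was higher and 1 lower of 5 (10.1%).

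Ccr2 encodes the receptor for CCL2, CCL7 and CCL12, known for drawing monocytes out of marrow and carried by some innate lymphoid cells. Its level was 79.3 CPM (475 UMIs) in WT DN1, 58.8 CPM (532 UMIs) in WT DN2a and 97.1 CPM (265 UMIs) in WT DN2b. ΔTE had 90.6 CPM (534 UMIs), 137 CPM (864 UMIs) and 296 CPM (508 UMIs). Wells of ΔTE lay above those of WT in every start without overlap, the nearest being 86.9 against 82.4 CPM from DN1. The excess of ΔTE was 0.19 (0.01 to 0.37) from DN1, 1.22 (1.06 to 1.38) from DN2a and 1.61 (1.39 to 1.83) from DN2b, which is 3.05-fold. Both DN2 ratios passed 1.5-fold under every alternative tried, within 0.96 to 1.35 from DN2a and 1.34 to 1.71 from DN2b.

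From DN1 to DN2a Ccr2 fell in WT by a ratio of −0.43 (−0.61 to −0.25), short of 1.5-fold, and rose in ΔTE by 0.59 (0.44 to 0.75), each with separate wells. The rise in ΔTE sits at the threshold and missed it without well 1 or 3 of ΔTE DN2a (0.52 and 0.58) and without well 1 or 3 of ΔTE DN1 (0.58 and 0.57). Over all alternatives it lay between 0.52 and 0.66, and the call was lost in 10 of 16. From DN2a to DN2b Ccr2 rose in both, by 0.72 (0.50 to 0.94) in WT and 1.11 (0.95 to 1.27) in ΔTE. With no limit on mitochondrial UMIs the WT rise was 0.26 and no longer passed, and in cells of no gate it was 0.52. The difference between genotypes in these steps was not tested.

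Cells of the ILC or NK gate held more Ccr2 than cells of no gate in all 6 libraries, with an interval that includes 0 in WT DN1. The log2 ratios were 0.28 (−0.69 to 1.10), 1.59 (1.10 to 2.04) and 2.22 (1.76 to 2.65) in WT from DN1, DN2a and DN2b. In ΔTE they were 1.18 (0.54 to 1.77), 2.04 (1.79 to 2.28) and 1.81 (1.54 to 2.08). Summed over libraries the levels were 409 and 92.4 CPM, a ratio of 2.15 (2.004 to 2.29) that also carries the larger share of gate cells from the ΔTE DN2 libraries. In the T lineage gate Ccr2 was below cells of no gate in WT DN2b, at −0.87 (−1.77 to −0.09), ΔTE DN2a, at −0.95 (−1.91 to −0.14), and ΔTE DN2b, at −2.62 (−4.25 to −1.38), with intervals that include 0 in the other 3 libraries. The multipotent progenitor gate had more Ccr2 than cells of no gate in WT DN1, 132 against 73.2 CPM, a ratio of 0.85 (0.43 to 1.25), with intervals that include 0 in the other 5 libraries. The myeloid gate had it at 168 CPM, on 47 UMIs summed over libraries. A narrower ILC or NK gate of 8 markers, drawn up after the data were seen, passed 154 cells and gave 855 CPM (675 to 1069), on 77 UMIs. Of these cells 64 were from ΔTE DN2a and 59 from ΔTE DN2b, so this level also carries that of those libraries.

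Cells of the ILC or NK gate were also more frequent in ΔTE, with 1.46%, 1.99% and 4.23% of kept cells in WT and 1.72%, 4.36% and 10.8% in ΔTE. The 16 markers summed to 489, 693 and 786 CPM in WT and 462, 701 and 1300 CPM in ΔTE, with Nkg7 the most abundant throughout. Nkg7 itself was lower in ΔTE from every start, at 292, 417 and 362 CPM in WT and 234, 299 and 322 CPM in ΔTE. A UMI was present for 11, 16 and 15 of the 16 in WT and 13, 15 and 14 in ΔTE. At 0 were Areg in every library apart from WT DN2a, Klrb1c and Eomes in both DN1 libraries, Il2rb and Xcl1 in WT DN1, and Il1rl1 in ΔTE DN2b. In sums over cells, more cells of a kind and more RNA per cell cannot be told apart.

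The Ccr2 difference was also present within gates. Inside the ILC or NK gate ΔTE exceeded WT by 1.11 (0.07 to 2.24) from DN1, 1.49 (1.00 to 2.0001) from DN2a and 1.03 (0.59 to 1.48) from DN2b. In cells of no gate the excess was 0.21 (−0.00 to 0.41), 1.04 (0.86 to 1.22) and 1.43 (1.16 to 1.70). Few UMIs were left in the T lineage gate, where the DN2b ratio was −0.31 (−2.14 to 1.24), on 5 UMIs in ΔTE and 14 in WT. Ccr2 was thus higher in ΔTE from both DN2 starts in the ILC or NK gate and in ungated cells. In the T lineage gate no difference was detectable at this depth. The ILC or NK gate can hold a different mix of cells in each genotype. From DN2a the narrower gate passed 8 WT and 64 ΔTE cells, beside 388 and 506 in the ILC or NK gate. From DN2b it passed 12 and 59, beside 210 and 366. The part of that mix in the Ccr2 difference within the gate was not tested.

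**Figure D2:**
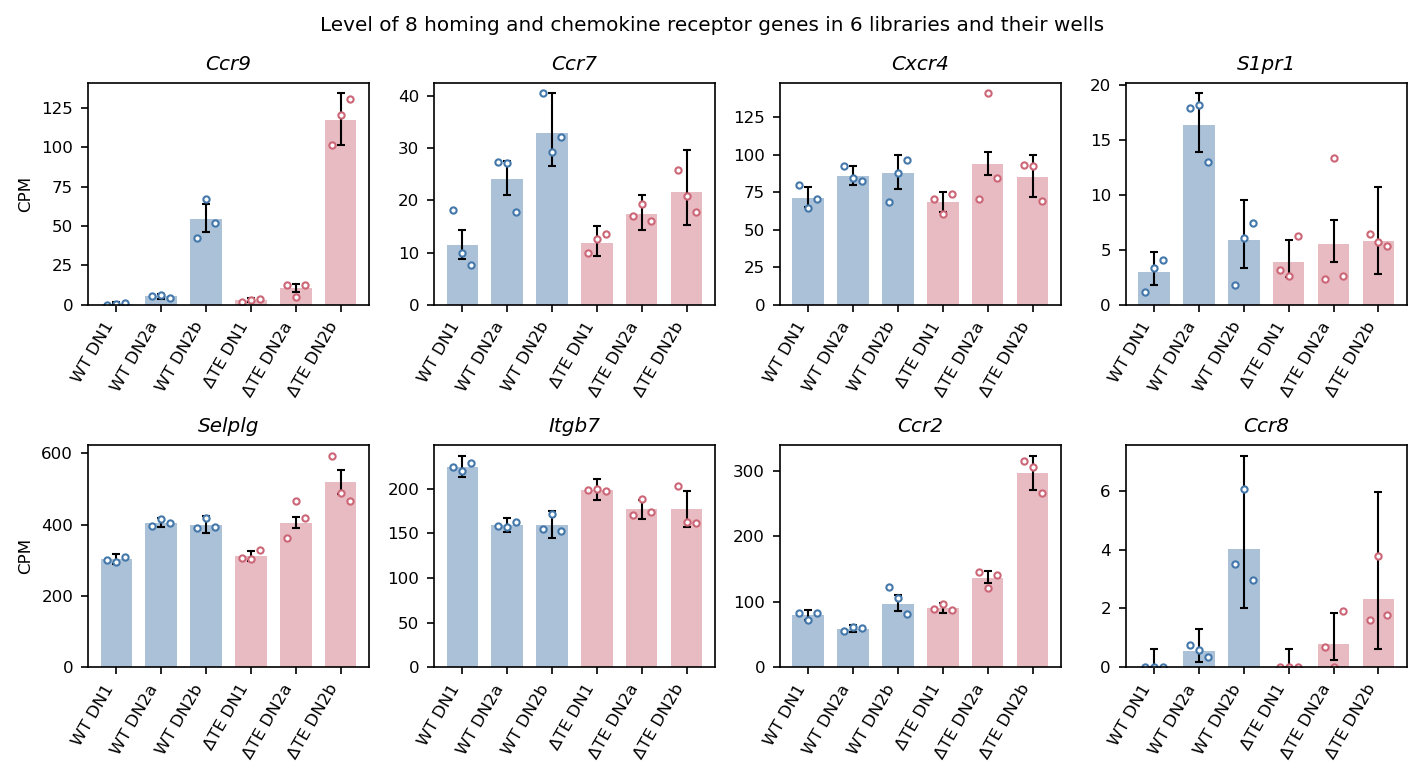
CPM of the 8 genes (vertical axes, separate scales from 0) in the 6 libraries (horizontal axes), with bars for library levels, black lines for exact 95% Poisson intervals of counting error and open circles for the 3 wells. Ccr9 and Ccr2 are highest in ΔTE DN2b, at 117 and 296 CPM, and S1pr1 in WT DN2a, at 16.4 CPM.

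In 3 of 6 libraries, cells with a Ccr9 UMI held more Ccr2 than the remaining cells, beyond counting error. Among WT DN2b cells with a Ccr9 UMI, Ccr2 was at 255 CPM against 92.4 CPM in the remaining cells, a ratio of 1.47 (0.73 to 2.12). In ΔTE DN2a the levels were 589 and 134 CPM, a ratio of 2.14 (1.45 to 2.74), and in ΔTE DN2b 497 and 284 CPM, a ratio of 0.80 (0.34 to 1.24). These rest on 20, 22 and 47 Ccr2 UMIs, and the other 3 libraries, with 1 or 2 Ccr2 UMIs in such cells, have intervals that include 0. The ILC or NK markers were higher beside Ccr9 too, by 0.76 (0.45 to 1.04) in WT DN2b and 0.64 (0.42 to 0.86) in ΔTE DN2b, and the T lineage markers by 0.35 (0.07 to 0.62) and 0.26 (−0.01 to 0.52). From DN2a the ILC or NK markers were higher by 0.76 (0.16 to 1.30) in WT and 1.05 (0.64 to 1.44) in ΔTE, and the T lineage markers by 0.79 (0.18 to 1.33) and 0.55 (−0.07 to 1.10).

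From DN2b, cells with a Ccr2 UMI carried a different marker balance. In WT DN2b their ILC or NK markers summed to 1882 CPM against 729 CPM in the remaining cells, and in ΔTE DN2b to 2849 against 1066 CPM, ratios of 1.37 (1.17 to 1.56) and 1.42 (1.28 to 1.55). T lineage markers were lower in them, by −0.43 (−0.71 to −0.16) and −0.35 (−0.57 to −0.15). Itgb7 was higher in them, by 0.85 (0.32 to 1.34) and 0.90 (0.49 to 1.30). From DN2a the ILC or NK marker ratios were 0.57 (0.38 to 0.75) in WT and 1.09 (0.97 to 1.22) in ΔTE, with T lineage ratios of −0.02 and −0.09 whose intervals include 0. From DN1 no shift was detectable, with ILC or NK ratios of 0.14 (−0.11 to 0.38) and 0.19 (−0.04 to 0.42). These cell sets, defined by a member's own UMI, were drawn up after the data were seen and favour cells with more UMIs, with median depths of 550 and 492 UMIs against 455 and 426 for all kept cells of those libraries.

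Ccr8, the receptor for CCL1 and CCL8, was close to the limit of detection with 25 UMIs in all. It was at 0.553 CPM (5 UMIs) in WT DN2a and 4.03 CPM (11 UMIs) in WT DN2b, and at 0.792 CPM (5 UMIs) in ΔTE DN2a and 2.33 CPM (4 UMIs) in ΔTE DN2b. No UMI was found in either DN1 library, which allows up to 0.501 CPM in WT and 0.509 CPM in ΔTE by a limit of 3 UMIs. DN2b was above DN2a in WT by 2.86 (1.22 to 4.74), on 16 UMIs, and the genotypes overlapped in both DN2 starts. The gene was not testable in any of the 7 comparisons.

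The other marker lists were followed as a description of what else the libraries held. Multipotent progenitor markers summed to 808, 422 and 291 CPM in WT and 709.8, 328 and 177 CPM in ΔTE, with a UMI for all 8 in every library and Bcl11a or Lyl1 as the most abundant. Myeloid markers summed to 504, 91.0 and 53.5 CPM in WT and 360.3, 92.5 and 35.0 CPM in ΔTE, with a UMI for between 7 (ΔTE DN2b) and 15 of the 15. Both sums were highest from DN1 and lowest from DN2b in either genotype. Antigen-presenting markers summed to 75.3, 14.8 and 5.49 CPM in WT and 101, 23.6 and 2.91 CPM in ΔTE. The mast cell, basophil or megakaryocyte list, nearly all of it Cpa3, summed to 417, 597 and 462 CPM in WT and 516, 739 and 517 CPM in ΔTE. B cell markers, mostly Ebf1, summed to 51.1, 146 and 58.6 CPM in WT and 36.8, 75.0 and 28.0 CPM in ΔTE, highest in the DN2a libraries like the stroma markers.

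Gate levels of the other homing genes were compared within libraries, since sums over libraries mix gates that are filled unequally with libraries that differ in level. Ccr9 in the ILC or NK gate exceeded cells of no gate beyond counting error in ΔTE DN2b, by 0.72 (0.15 to 1.25). In WT DN2a, WT DN2b and ΔTE DN2a the ratios of 0.66, 0.86 and 0.76 had intervals that include 0. The T lineage gate gave Ccr9 ratios of 0.01 (−0.84 to 0.78) in WT DN2b and 0.39 (−0.40 to 1.11) in ΔTE DN2b. The multipotent progenitor gate held a single Ccr9 UMI, which sets no limit below cells of no gate in any library. Itgb7 in the ILC or NK gate was higher in ΔTE DN2a, by 0.50 (0.17 to 0.82), and ΔTE DN2b, by 1.12 (0.72 to 1.51). In the T lineage gate Itgb7 was lower in WT DN2b, at −0.61 (−1.18 to −0.09), and ΔTE DN2a, at −0.64 (−1.32 to −0.03). The intervals of Itgb7 in these gates include 0 in the other libraries. Selplg was higher in the ILC or NK gate of ΔTE DN2b, by 0.48 (0.21 to 0.74), as was Ccr8, on 3 UMIs against 1. In the multipotent progenitor gate Selplg was lower in ΔTE DN1, at −0.37 (−0.68 to −0.07). That gate in WT DN1 had Cxcr4 at −0.74 (−1.45 to −0.11) and Itgb7 at −0.37 (−0.71 to −0.05).

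Receptor RNA was also counted in the stroma gate, although stromal cells are not a usual source of PSGL-1, CCR2, CCR9 or β7 integrin. In that gate Selplg was at 93.0 CPM, Itgb7 at 41.5, Cxcr4 at 24.8, Ccr2 at 21.2, Ccr7 at 4.05 and Ccr9 at 3.03 CPM. These are sums over libraries, and most stroma-gate cells are from WT DN2a. Within WT DN2a the ratios to cells of no gate were −2.19 for Selplg, −2.23 for Itgb7, −1.80 for Cxcr4, −1.88 for Ccr2 and −2.28 for Ccr7, while that of Ccr9, −0.93 (−3.27 to 0.73), has an interval that includes 0. The median depth was 603, 507 and 672.5 UMIs per stroma-gate cell in WT and 516.5, 575 and 494 in ΔTE, against 447, 369, 431, 471, 433 and 410 in cells of no gate. Free RNA and cells joined in 1 barcode were not told apart.

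**Figure D3:**
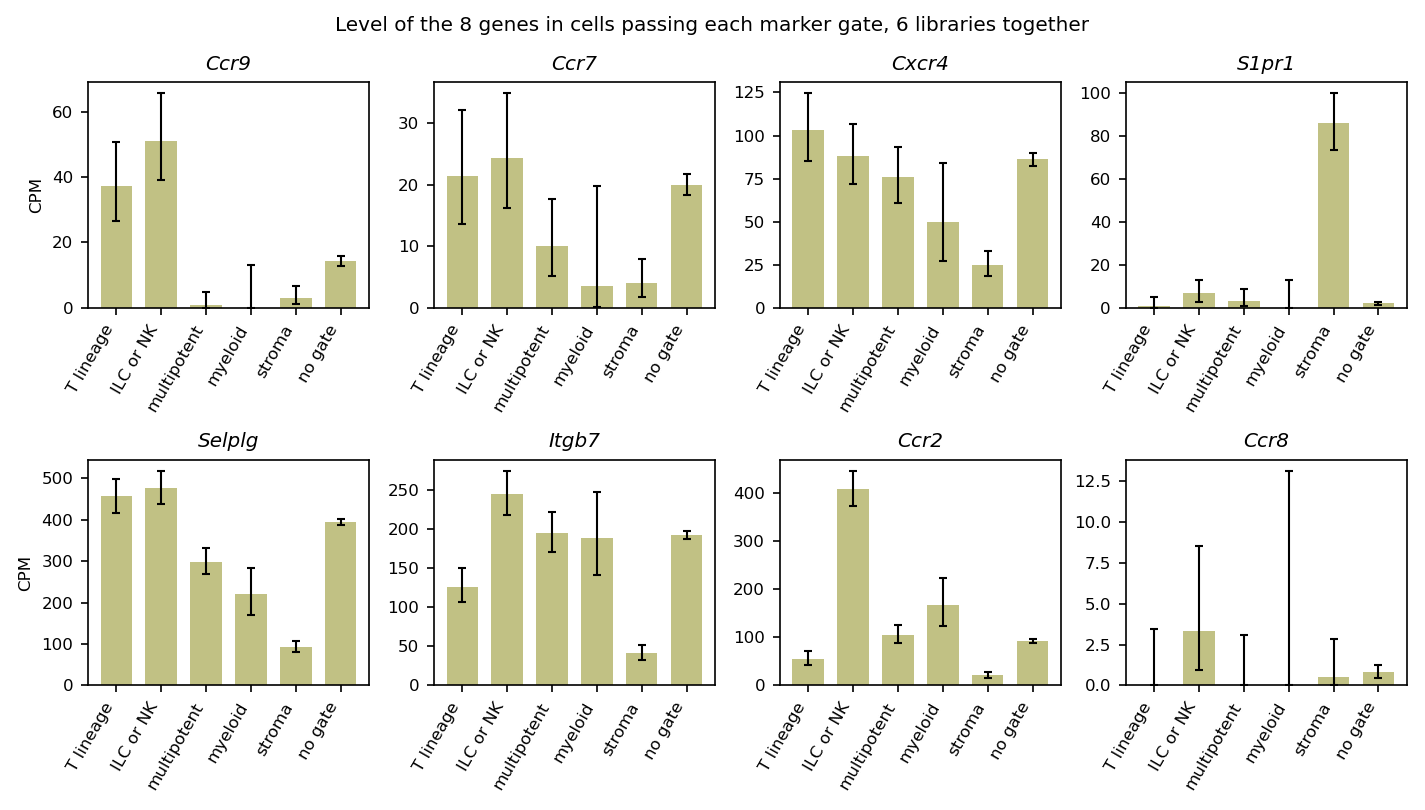
CPM of the 8 genes (vertical axes, separate scales from 0) summed over the cells of all 6 libraries that pass each marker gate or no gate (horizontal axes), with exact 95% Poisson intervals. S1pr1 stands out in the stroma gate at 86.0 CPM and Ccr2 in the ILC or NK gate at 409 CPM.

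A list held 20 further chemokine and related receptors, and 13 of these were measured. Between genotypes 1 of 3, 2 of 5 and 1 of 1 testable genes passed from DN1, DN2a and DN2b (all genes: 2.45%, 8.37% and 6.12%). Cxcr5, a receptor for CXCL13 that guides lymphocytes to follicles, passed each time and was at 10.2, 16.8 and 8.79 CPM in WT and 40.0, 63.0 and 65.3 CPM in ΔTE. The wells were separate in every start, and the ratios were 1.98 (1.56 to 2.41), 1.91 (1.63 to 2.19) and 2.89 (2.25 to 3.59). Cmklr1 was lower in ΔTE from DN2a, at −0.92 (−1.60 to −0.28). Gpr183, Cx3cr1 and Ccr4, the other abundant receptors of the list, had ratios from DN2a of 0.42 (0.12 to 0.72), 0.50 (0.06 to 0.94) and 0.30 (−0.17 to 0.77). On fewer than 100 UMIs each and with separate wells, Gpr183 and Cx3cr1 were higher in ΔTE from DN2b, by 1.41 (0.79 to 2.05) and 1.16 (0.50 to 1.82), and Ccr4 from DN1, by 1.07 (0.40 to 1.78).

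Genes for ligands and for the making, export and breakdown of sphingosine 1-phosphate formed a list of 17, of which 10 were measured. From DN1, DN2a and DN2b, 1 of 5, 1 of 6 and 1 of 3 testable genes passed (all genes: 2.45%, 8.37% and 6.12%), all lower in ΔTE. Cxcl12, the CXCR4 ligand, was at 75.1, 373 and 175 CPM in WT and 42.9, 259.5 and 74.0 CPM in ΔTE, the same order of libraries as for the summed stroma markers. Their part in the result was not tested. Its ratios were −0.81 (−1.04 to −0.58), −0.52 (−0.61 to −0.44) and −1.24 (−1.54 to −0.96), and wells overlapped in every start. Sgpl1, for the lyase that breaks down sphingosine 1-phosphate, was lower from DN2a, at −0.73 (−1.07 to −0.40), also with overlapping wells. Ccl25, the ligand of CCR9, did not differ between genotypes beyond its interval at any start and lay between 63.4 and 89.4 CPM. Spns2, for the exporter of sphingosine 1-phosphate, was at 101, 46.9 and 20.1 CPM in WT and 106, 59.8 and 29.7 CPM in ΔTE, highest from DN1.

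Of 28 genes listed for the machinery that carries the receptor signal, 27 are in the files and 26 were measured, Adrbk1 being listed under its newer name Grk2. None of 24, 24 and 21 testable genes passed from DN1, DN2a and DN2b (0 each), beside 2.45%, 8.37% and 6.12% of all genes, shares that give few calls in a list of this size. Elmo1, Gnai2, Dock2 and Dock8, the most abundant, had ratios between −0.32 and 0.25 over the 3 starts. The list's medians were −0.06, −0.12 and 0.05.

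For members with at least 300 UMIs, the genes with the most similar profile over the 6 libraries were found by the root mean square difference of centred log2 levels among 9147 others. Nearest to Ccr9 were Icos (0.39), Cd163l1 (0.64) and Cd28 (0.84), and Icos went from 2.003 to 118 CPM between WT DN1 and ΔTE DN2b. Nearest to Ccr2 were Id2 (0.30), Ctsw (0.31) and Ahr (0.34), and Id2 was at 30.2, 37.9 and 63.4 CPM in WT and 43.1, 64.4 and 199 CPM in ΔTE. Icos and Id2 are also markers of the ILC or NK list. Ccr7 was nearest to Ms4a6b (0.08), Ypel2 and Map3k13, Cxcr4 to Hilpda (0.03), Calm3 and Usp11, Selplg to Grk2 (0.03), Gapdh and Cmc2, and Itgb7 to Polr3g (0.05), Cipc and Dgkd. Flat profiles can lie near many genes, and how many lie as near to each member was not counted. The small distances of Cxcr4, Selplg and Itgb7 are therefore not comparable with those of Ccr9 and Ccr2. The Ccr9 profile rests on 4 UMIs in WT DN1 and 16 in ΔTE DN1.

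By position the 8 genes fall on 6 chromosomes, from Ensembl identifiers matched to GENCODE M21 on GRCm38. All 8 matched, as did 28008 of the identifiers listed, while 40 did not. Ccr9 (chromosome 9, 123678439 to 123784330, plus strand), Ccr2 (chromosome 9, 124101950 to 124113557, plus strand) and Ccr8 (chromosome 9, 120092114 to 120094906, plus strand) share a chromosome. Ccr9 and Ccr2, the pair higher in ΔTE from both DN2 starts, lie 317619 bases apart, and Ccr8 lies 3583532 bases before Ccr9. The others are Ccr7 (chromosome 11, 99144196 to 99155077, minus strand), Cxcr4 (chromosome 1, 128588199 to 128592293, minus strand), S1pr1 (chromosome 3, 115710433 to 115715072, minus strand), Selplg (chromosome 5, 113818536 to 113832644, minus strand) and Itgb7 (chromosome 15, 102215995 to 102231944, minus strand). The submitters' notes list mm9 and the files hold no coordinates, so these positions belong to the annotation and not to the counts.

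RefSeq promoter stretches on GRCm38.p6 were available for 5 of the 8 genes, Ccr9, Cxcr4, Itgb7, Ccr2 and Ccr8. The 250 bases before each RefSeq start were searched on both strands for TGTGGT, the core bound by Runx factors, CAGNTG, the core bound by E proteins, AGATAA, the core bound by GATA factors, and CTTTGA, the core bound by TCF factors. The Runx letters are in 14.0% of all 32851 such stretches and in 0 of the 5. Those of E proteins are in 44.8% of all and in 1 of the 5, Ccr9. Those of GATA factors are in 9.99% of all and in 2 of the 5, Ccr2 and Ccr8, where 233 of the 250 bases of the Ccr2 stretch lie in an annotated exon, and those of TCF factors in 13.8% of all and in 0 of the 5. A match describes the letters only. Printed for Ccr9 are the 208 bases of its stretch that lie in no annotated exon of the gene, at chr9:123766961-123767168 on the plus strand, 5′ to 3′, with the E protein match in capitals. They lie inside the annotated span of Ccr9, downstream of its most upstream exon.

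Ccr9: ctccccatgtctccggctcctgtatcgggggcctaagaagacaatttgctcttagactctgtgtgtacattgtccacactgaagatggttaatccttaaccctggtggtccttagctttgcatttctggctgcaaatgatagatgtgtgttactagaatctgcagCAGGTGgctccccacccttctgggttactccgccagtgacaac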

How the data were processed

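The deposited files hold raw UMI counts per gene and barcode, which the authors made by sci-RNA-seq3 from fixed cells of 6 libraries. The submitters' processing notes list mm9; the aligner is not given in the sources used here. Barcodes were kept from 200 genes upward, up to 2000 UMIs and up to 30% UMIs of genes named mt-, and no doublet caller was used. UMIs were summed per library and reverse-transcription well and scaled to CPM. The 8 genes, the 6 gene lists and the 8 marker lists were chosen with earlier results of these data known. From each gene list up to 4 of the most abundant genes and those past 1.5-fold between genotypes are named, and the 3 genes most like each member. Each library is 1 sample, so 7 comparisons are given as ratios with exact 95% intervals for counting error, without tests between conditions. Calls needed 1.5-fold and 100 UMIs. Alternatives varied cell limits, scaling, wells and gates. Python 3.11.15, numpy 2.4.6, scipy 1.17.1, pandas 2.3.3, matplotlib 3.10.9, R 4.3.3 and edgeR 4.0.16 (TMM) were used, and the code was tested on simulated data.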

Additional observations from a re-analysis of the deposited data

Results flagged for a closer look

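In 2 cases, ratios of the same kind for a gene lay on opposite sides of 0, each with an interval that excluded 0. The difference between those ratios was not tested. Itgb7 in ΔTE against WT had a log2 ratio of 0.15 from DN2a and −0.18 from DN1. Without cells of at least 2 stroma markers these were 0.09 (−0.03 to 0.20) and −0.18 (−0.30 to −0.07). In cells of no gate they were 0.06 (−0.06 to 0.18) and −0.28 (−0.40 to −0.15), so the DN2a interval then included 0 both times. Ccr2 from DN1 to DN2a had a log2 ratio of 0.59 in ΔTE and −0.43 in WT.

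Barcodes outside the limits for kept cells also held UMIs of these genes apart from Ccr8, above what a count of 0 allows. Those over 2000 UMIs held Ccr9 at 8.09 CPM, Ccr7 at 5.94, Cxcr4 at 27.9, S1pr1 at 41.2, Selplg at 123, Itgb7 at 58.6 and Ccr2 at 34.2 CPM. Those over 30% mitochondrial UMIs held Ccr9 at 16.8 CPM, Ccr7 at 8.72, Cxcr4 at 57.1, S1pr1 at 23.7, Selplg at 210.3, Itgb7 at 97.7 and Ccr2 at 55.0 CPM. Ccr8 had 0 UMIs in the barcodes over 2000 UMIs and 3 in those over 30% mitochondrial UMIs. The difference of these barcodes from kept cells was not tested.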

How the results depend on the processing

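Of 14 called ratios, 5 kept the call under every alternative: Ccr9 (0.97 to 1.25) and Ccr2 (1.34 to 1.71) in ΔTE against WT from DN2b, Ccr2 in ΔTE against WT from DN2a (0.96 to 1.35), Ccr2 from DN2a to DN2b in ΔTE (0.64 to 1.25) and Ccr7 from DN1 to DN2a in WT (0.79 to 1.48). The other 9 lost the call under at least 1. Over the 224 values of called ratios under alternatives, the call was lost in 34, of which 18 had too few UMIs and 16 were under 1.5-fold. S1pr1 from DN2a to DN2b in WT turned to 0.12 with no mitochondrial limit and to 0.27 without cells of 2 or more stroma markers.

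Counts of called homing genes, past 1.5-fold with at least 100 UMIs, also changed. With cells in no gate only, an alternative chosen after seeing the data, the count fell from 3 to 1 for ΔTE against WT from DN2a, from 2 to 1 for DN1 to DN2a in WT and from 3 to 1 for DN2a to DN2b in WT. There Ccr9 (1.00) and S1pr1 (−1.54) for ΔTE against WT from DN2a, and S1pr1 (1.80) from DN1 to DN2a in WT, lacked UMIs for a call and not the fold. Without stroma-marker cells the WT count from DN1 to DN2a was 1, and with no mitochondrial limit the WT count from DN2a to DN2b was 1. In ΔTE the count from DN1 to DN2a, 1, became 0 with at least 300 genes, at most 2000 genes, mitochondrial UMIs left out of the total or TMM scaling. It became 2 with at most 1000 UMIs, no mitochondrial limit, no stroma-marker cells or a minimum of 50 UMIs, and 3 with at most 20% mitochondrial UMIs. Leaving out 1 well gave 0 to 2. From DN2a to DN2b in ΔTE it was 1 in place of 2 with at most 20% mitochondrial UMIs. The cause was not tested.

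Of 846 ratios under alternatives, 756 lay within the interval of the reported value, 44 above and 46 below. Depth limits Ccr8, S1pr1 and, from DN1, Ccr9, with 25, 250 and 20 UMIs.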
